A study of Mus musculus with 6 samples.

Results

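The solute carriers (gene symbols Slc) and the ATP-binding cassette proteins (gene symbols Abc) make up a large part of the proteins that move small molecules across cell membranes. Their RNA was measured in the thoracic mammary gland of virgin F1 CF-1/FVB mice at an age of 16 weeks. Members were all probe sets whose platform annotation named a single gene with a symbol of Slc and a digit, or of Abc, one letter from a to g, and a digit. This rule found 213 of 12488 probe sets, and 176 of the 8251 genes with a probe set of their own. They were 33 probe sets for carriers of amino acids and peptides, 12 for sugars, 45 for ions and metals and 123 for other substrates, ABC proteins included. The LH transgenic mice overexpressed luteinizing hormone, which is a pituitary hormone that stimulates steroid synthesis in the ovary, and their controls were wild type. Each group had 3 pools, each pool held RNA of 3 mice, and each was hybridised to 1 Affymetrix array, so that 18 mice were used. The labels call the transgenic mice LH-overexpressing and do not give the promoter of the transgene, and all mice of both groups were virgin.

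A mammary gland that makes milk has to import glucose and amino acids across the basal membrane of its epithelial cells and to move calcium, phosphate, zinc, vitamins and other solutes towards the milk. Solute carriers move their substrates by facilitated diffusion, by exchange or with the sodium gradient as the driving force, and ABC proteins hydrolyse ATP. The fat cells around the ducts use carriers of their own, such as the insulin-responsive glucose transporter. In a whole gland, less RNA of a gene per cell and fewer cells of a type cannot be told apart.

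The values are MAS5 signals, linear intensities that the authors deposited. Values of 3 pools are given in the order of pools 1, 2 and 3. A probe set was called when limma, fitted to log2(signal + 80) over all tested probe sets, gave a Benjamini-Hochberg adjusted p under 0.05. Each difference is the LH transgenic mean minus the wild type mean on that log2 scale, which understates the change of dim probe sets, and 95% intervals are not adjusted for the number of tests. The p-values set each difference against the spread between these pools, estimated with the help of all tested probe sets. Spread between single mice was not measured. Signals of different probe sets depend on their probes and are not compared with each other. Trimmed means lay between 1500.8 and 1500.9 on all arrays, and 60.4% of the variance lay on a principal component that separated the groups.

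Most lists of cell markers moved with the groups. Over all tested probe sets 10.5% were called higher and 10.8% lower, and the counts below stand beside these shares. Fat cell markers were called lower in 11 of 15 tested genes, with summed signals of 144995 to 162790 in LH transgenic pools and 246958 to 282838 in wild type pools. Skeletal muscle markers were called lower in 7 of 19, and their sums were 28078, 32613 and 110738 in LH transgenic pools against 121030 to 138577 in wild type pools, so that LH transgenic pool 3 lay apart from pools 1 and 2. Milk protein and alveolar genes were called higher in 13 of 17 (sums of 761575 to 989782 in LH transgenic pools and 318569 to 539597 in wild type pools), and macrophage markers in 5 of 12 (sums of 82733 to 98114 against 48164 to 64898). Luminal epithelial markers were called higher in 7 and lower in 3 of 18, with sums of 137494 to 152924 against 96877 to 109311. Endothelial markers were called lower in 10 of 14 (sums of 21354 to 24366 against 42929 to 50772), and no fat cell, milk, luminal, macrophage or endothelial marker stayed at or below a signal of 100 on every array. Fibroblast markers were called lower in 9 of 13, with sums of 99627 to 127869 in LH transgenic pools and 154245 to 201393 in wild type pools. Basal and myoepithelial markers were called higher in 1 and lower in 2 of 9. Their sums overlapped, with 55046 to 57204 in LH transgenic pools and 52734 to 61195 in wild type pools. B and T cell markers were called higher in 1 of 5 (sums of 4646 to 5330 against 3591 to 4224). The part of these marker shifts in the transporter results was not tested. For muscle, the level of the markers was used as a covariate, but that level went largely with the group. Its slope rests mainly on LH transgenic pool 3, so that fit cannot separate muscle from group.

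Of the 213 transporter probe sets, 123 (112 genes) were bright enough to be tested, and the other 90, with 6-array means of at most 329, were not. LH transgenic glands had 19 probe sets called higher and 12 called lower, which is 25.2% of those tested against 21.3% of all 7453 tested probe sets. Calls of higher signal made up 15.4% of the members and 10.5% of all probe sets, and calls of lower signal 9.76% and 10.8%. The members' median difference was 0.07, beside 0.02 over all probe sets. All pools of one group lay above all pools of the other for 53 members, 28 higher and 25 lower, which was the case for 40.4% of all probe sets (20.6% higher and 19.8% lower). Differences of at least 2-fold were called in 6 members upwards and 5 downwards, beside 2.88% and 3.81% of all probe sets. Most tested members, 79 of 123, differed by less than 0.5 on the log2 scale.

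**Figure D1:**
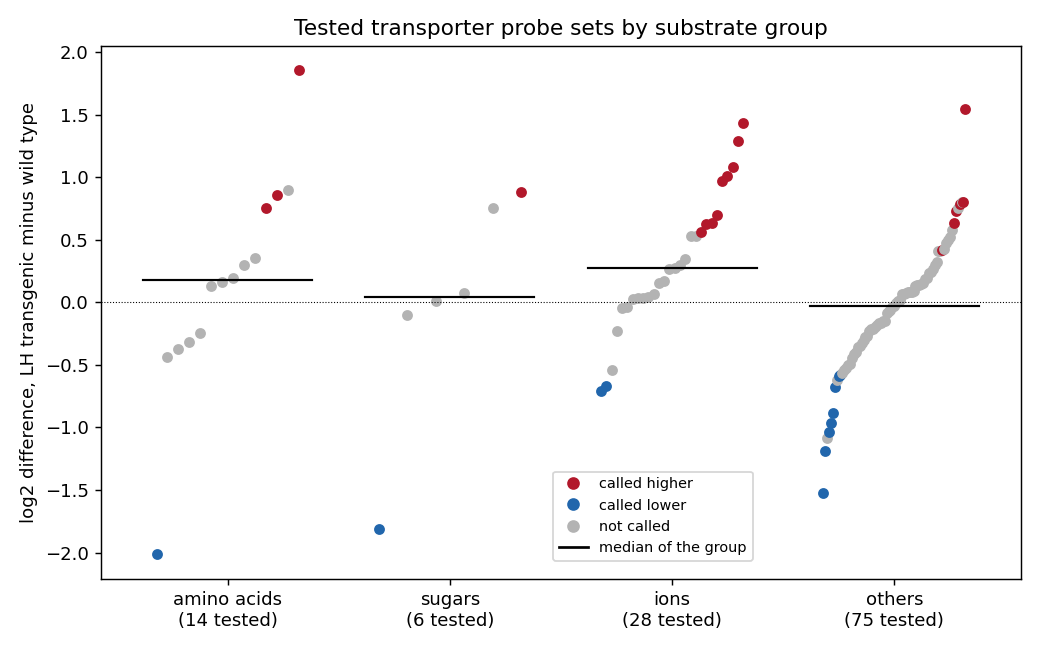
Log2 difference, LH transgenic minus wild type, of the 123 tested transporter probe sets by substrate group, ordered within each group. Points are probe sets, coloured by the limma call, and bars are group medians (0.18 for amino acids, 0.04 for sugars, 0.27 for ions and -0.03 for others). The lowest points are Slc1a5 and Slc2a4 and the highest is Slc7a5.

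Among carriers of amino acids, 14 of 33 probe sets were tested, of which 3 were called higher and 1 lower, with a median difference of 0.18. These are 21.4% and 7.14%, beside 10.5% and 10.8% of all tested probe sets. The largest increase and the largest decrease of all members were both found here. Slc7a5, the light chain of a large exchanger that brings leucine and other essential amino acids into the cell, had signals of 11374, 12129 and 5978 in LH transgenic pools, against 2594, 3187 and 1959.9 in wild type pools (log2 difference 1.86, SE 0.27, adjusted p 0.00182). Its groups were well apart, and LH transgenic pool 3 lay well below pools 1 and 2. Slc1a5, a sodium-dependent exchanger of glutamine and other neutral amino acids, had 2376, 2748 and 2083 in LH transgenic pools and 9762, 9247 and 10724 in wild type pools (log2 difference -2.01, SE 0.14, adjusted p 8.97e-05). All 3 LH transgenic pools lay close together, far below every wild type pool.

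Slc3a2 encodes the heavy chain that carries the light chains Slc7a5 and Slc7a7 to the plasma membrane. It had 9187, 11732 and 11196 in LH transgenic pools and 9258, 8560.1 and 7211 in wild type pools, and was not called (difference 0.36, 95% interval 0.03 to 0.68, adjusted p 0.111). LH transgenic pool 1 overlapped the wild type pools, while pools 2 and 3 lay above them. The light chain Slc7a7, which exchanges cationic for neutral amino acids in epithelia and macrophages, had 1881, 2131 and 1842 in LH transgenic pools against 979.9, 1359 and 1049.5 in wild type pools and was called higher (log2 difference 0.76, SE 0.16, adjusted p 0.00904). Its wild type pools, like the macrophage marker and milk gene sums, were highest in pool 2, but no pool of one group reached the other group.

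Slc38a2, a sodium-coupled carrier of alanine and glutamine, had 5585, 3704 and 6227 in LH transgenic pools and 3141, 2588 and 2562 in wild type pools (log2 difference 0.86, SE 0.19, adjusted p 0.013). The call was lost when wild type pool 3 (0.81, adjusted p 0.0531) or LH transgenic pool 1 (0.79, adjusted p 0.0527) was left out. Its 3 other probe sets, all marked by the manufacturer for relaxed probe selection, had signals of at most 69.0 and were not tested. The peptide carrier Slc15a2 had 1584, 1427 and 3055 in LH transgenic pools against 1087, 1308 and 670.4 in wild type pools, without overlap but also without a call (difference 0.90, adjusted p 0.0618), and the difference was 1.10 and called without LH transgenic pool 2 but 0.57 and not called without pool 3, which stood apart. The serine and alanine carrier Slc1a4 did not differ beyond its spread (difference 0.13, 95% interval -0.28 to 0.54), nor did the taurine carrier Slc6a6 (0.30, 95% interval -0.36 to 0.96). Slc38a10, Slc38a4, Slc38a5 and Slc7a2 had differences of -0.37, -0.32, -0.24 and -0.44, none called. The cationic amino acid carrier Slc7a1 had signals of 53.3, 26.4 and 23.2 in LH transgenic and 27.4, 20.1 and 31.5 in wild type pools and was too dim to be tested.

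Of the 12 sugar carrier probe sets, 6 were tested, 1 was called higher and 1 lower (16.7% each, beside 10.5% and 10.8% of all tested probe sets). Slc2a4, the glucose transporter that insulin brings to the surface of fat and muscle cells, had 1313, 1286 and 1077 in LH transgenic pools and 4996, 4078 and 4451 in wild type pools (log2 difference -1.81, SE 0.14, adjusted p 0.000136). The lowest value came from LH transgenic pool 3. That pool had the highest muscle marker sum and the lowest fat cell marker sum of its group (144995, against 159989 and 162790 in pools 1 and 2). With the muscle level as a covariate, a fit that rests mainly on that pool, the difference was -2.01 (SE 0.18, adjusted p 0.00115). The part of muscle or fat cells in this decrease was not tested. The second probe set of Slc2a4 had signals of at most 158.2 and was not tested.

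Slc2a1, the facilitated glucose transporter of most cells and the main route of glucose into milk-making epithelium, had 1126, 1635 and 1317 in LH transgenic pools against 1142, 788 and 486 in wild type pools. LH transgenic pool 1 lay just below wild type pool 1, so the groups overlapped, and the probe set was not called (difference 0.76, 95% interval 0.16 to 1.35, adjusted p 0.0706). Without wild type pool 1 it was called higher (1.02, adjusted p 0.0248), and without wild type pool 3 the difference was 0.47 (adjusted p 0.21). Slc5a1, the sodium-coupled glucose transporter, had 1063, 699.9 and 935 in LH transgenic pools and 449.9, 488 and 399.7 in wild type pools and was called higher (log2 difference 0.88, SE 0.19, adjusted p 0.011). Slc50a1, Slc2a8 and the glucose 6-phosphate carrier Slc37a4 had differences of 0.08, 0.01 and -0.10, none called. The fructose transporter Slc2a5, with signals of 49.2, 29.1 and 121 in LH transgenic pools and 222, 396 and 214 in wild type pools, was dim and fell below the filter. Without that filter it was called lower (difference -1.30, adjusted p 0.0292).

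**Figure D2:**
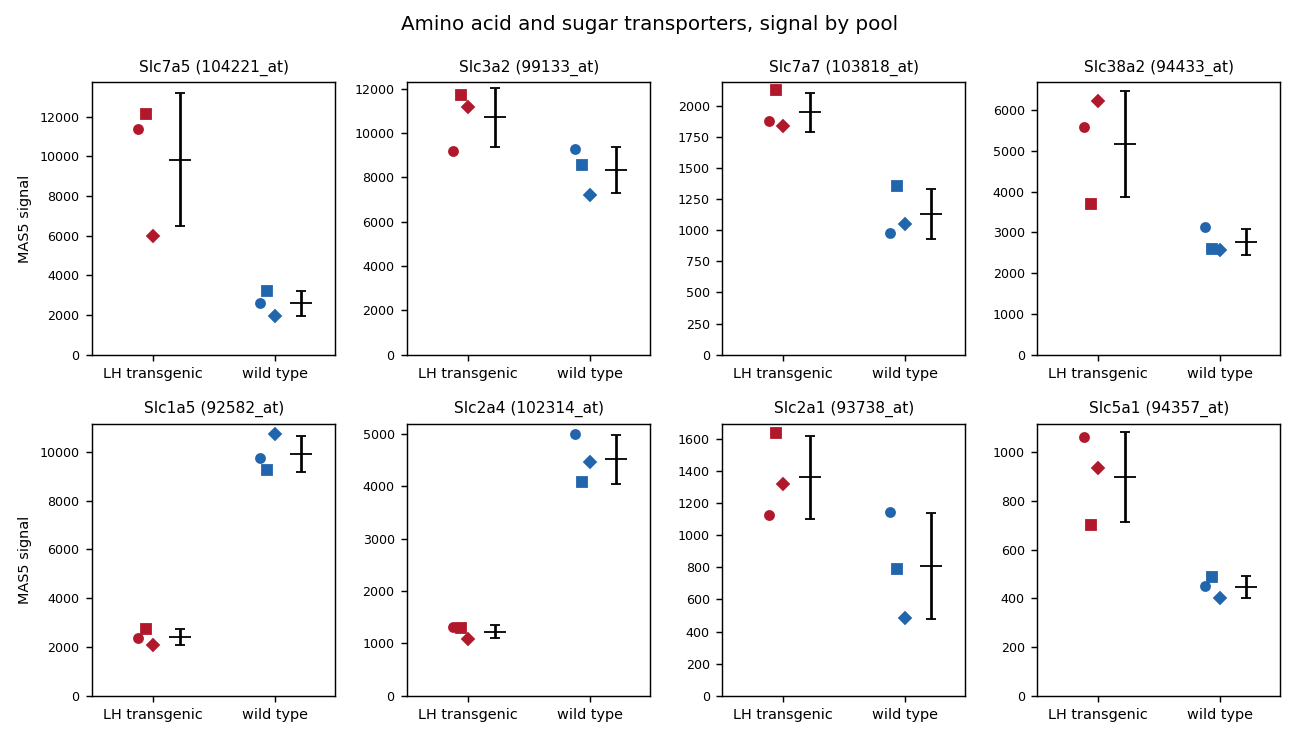
MAS5 signal (linear axis from 0) of 8 probe sets for amino acid and sugar carriers in the 3 LH transgenic pools (red) and 3 wild type pools (blue), with circles, squares and diamonds for pools 1, 2 and 3 and bars for the mean ± SD. Slc7a5, Slc7a7, Slc38a2 and Slc5a1 were higher and Slc1a5 and Slc2a4 lower in all LH transgenic pools, whereas the groups overlapped for Slc3a2 and Slc2a1.

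Of the 45 ion and metal carrier probe sets, 28 were tested, and 9 of them, for 8 genes, were called higher and 2 lower. Calls of higher signal were 32.1% of this group, beside 10.5% of all tested probe sets, and the group's median difference was 0.27. Calls of lower signal were 7.14%, beside 10.8% of all tested probe sets. Carriers of phosphate, zinc, iron, magnesium and copper supplied all calls of higher signal, and cation-chloride cotransporters both calls of lower signal. No test of the group as a whole was made.

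Slc34a2, the sodium-phosphate cotransporter of apical membranes in lung, gut and lactating mammary gland, had 2500.2, 3288 and 2203 in LH transgenic pools and 1225, 1479.7 and 589.6 in wild type pools (log2 difference 1.29, SE 0.29, adjusted p 0.0129). Wild type pool 3 was low, and the groups did not overlap. Without that pool the difference was 0.92. Slc20a1, a phosphate carrier of most cells, had 2634, 2488 and 1923 in LH transgenic pools and 1549, 1527 and 1353 in wild type pools (log2 difference 0.63, SE 0.15, adjusted p 0.0176), and the kidney form Slc34a1 was too dim to be tested.

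Zinc carriers had 13 tested probe sets, of which 3 were called higher (23.1%, beside 10.5% of all tested probe sets) and none lower. Their median was 0.18, and 4 had an unadjusted p under 0.05, as did 34.8% of all probe sets. Slc30a4, the zinc exporter that is mutated in the lethal milk mouse, whose milk lacks zinc, had 3505, 3232 and 3758 in LH transgenic pools against 1675, 2408 and 1194 in wild type pools (log2 difference 1.01, SE 0.22, adjusted p 0.0111). A second probe set of Slc30a4, with signals of at most 122.3, was not tested. Slc39a4, a zinc importer known from the gut, had 3599, 4343 and 3755 in LH transgenic pools and 1450.3, 1249 and 1479.6 in wild type pools (log2 difference 1.43, SE 0.14, adjusted p 0.00032). Its second tested probe set, marked for relaxed probe selection, had 2567, 3413 and 2909 in LH transgenic pools and 2499, 2736 and 2673 in wild type pools and was not called (0.16, adjusted p 0.474). Slc39a6, a zinc importer that estrogen induces in human breast cancer cells, had 1455, 1383 and 1217 in LH transgenic pools and 786, 859 and 758 in wild type pools (log2 difference 0.70, SE 0.14, adjusted p 0.00868).

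The remaining zinc importers and exporters were not called. Slc39a8 had 1634, 1684 and 1371 in LH transgenic pools and 1357, 1072 and 800.2 in wild type pools, with no overlap (difference 0.53, adjusted p 0.0787), and was called when wild type pool 1 was left out (0.70, adjusted p 0.0415). Without wild type pool 3 its difference was 0.35. Slc39a1, Slc39a3, Slc39a7 and Slc39a9 had differences of -0.04, 0.03, 0.18 and 0.28. Slc30a3 and Slc30a9 had -0.23 and -0.04. The 2 probe sets of Slc30a5 had 0.03 and 0.53.

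Slc11a2, which carries iron and other divalent metals into cells and out of endosomes, was called higher by both of its probe sets. One had 2403, 2144 and 2269.9 in LH transgenic pools and 1052, 1287 and 807 in wild type pools (difference 1.08, adjusted p 0.00285), and the other had 2694, 2728 and 3632 in LH transgenic pools and 2115, 1829 and 1783 in wild type pools (difference 0.63, adjusted p 0.0187). The second call was lost without wild type pool 2 or 3 (0.60 and 0.58, adjusted p 0.0617 and 0.0708). The related Slc11a1, a metal carrier of macrophage phagosomes, had 929.5, 1157 and 659 in LH transgenic and 865, 809.9 and 957 in wild type pools, with full overlap (difference 0.03, 95% interval -0.42 to 0.48). Slc41a1, a magnesium carrier, had 3015, 4047 and 3948 in LH transgenic pools and 1854, 2199.8 and 1469.6 in wild type pools (log2 difference 0.97, SE 0.18, adjusted p 0.00529). The copper importer Slc31a1 was called by 1 of 2 probe sets, with 4019, 3365 and 4381 in LH transgenic pools and 2692, 3169 and 2092 in wild type pools (difference 0.56, adjusted p 0.0467), while the other had 0.30 (adjusted p 0.191).

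The potassium-chloride cotransporters Slc12a4 and Slc12a7, which let cells lose salt when they swell, were lower. Slc12a4 had 692, 908 and 652 in LH transgenic pools and 1157, 1099 and 1594 in wild type pools (log2 difference -0.71, SE 0.19, adjusted p 0.0261). Slc12a7 had 1284, 971 and 1485 in LH transgenic pools and 1801, 2189 and 2025 in wild type pools (log2 difference -0.67, SE 0.17, adjusted p 0.0228). The Slc12a4 call was lost without wild type pool 1 or 3 or LH transgenic pool 1 or 3 (differences of -0.77 to -0.55), and the Slc12a7 call without wild type pool 2 or 3 or LH transgenic pool 1 or 2 (-0.70 to -0.51). Slc12a2, the sodium-potassium-chloride cotransporter of ductal epithelium, had 11695, 11203 and 10560.2 in LH transgenic pools and 12359.8, 8764 and 7274 in wild type pools, a difference of 0.27 (95% interval -0.14 to 0.67) that was not called. The anion exchanger Slc4a3 (-0.54, adjusted p 0.0519) had no overlap and was not called, and Slc4a2 (0.05), Slc9a8 (0.07) and the calcium exchanger Slc8a1 (0.34) were not called.

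**Figure D3:**
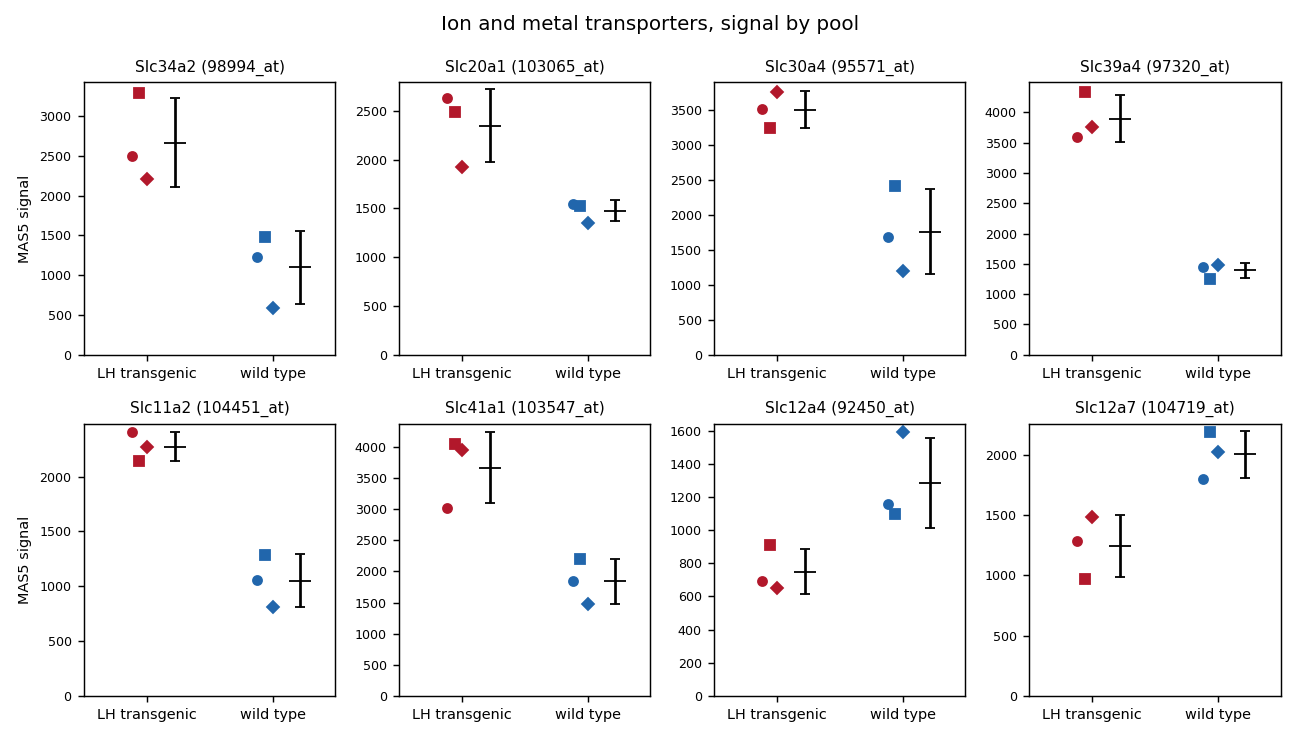
MAS5 signal (linear axis from 0) of 8 probe sets for ion and metal carriers in the 3 LH transgenic pools (red) and 3 wild type pools (blue), with circles, squares and diamonds for pools 1, 2 and 3 and bars for the mean ± SD. The groups were apart in every panel, with Slc12a4 and Slc12a7 lower and the other 6 higher in LH transgenic pools.

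Among the 123 probe sets for other substrates, 75 were tested, 6 were called higher and 8 lower, and the median difference was -0.03. These are 8% and 10.7%, beside 10.5% and 10.8% of all tested probe sets. Abcg2, an exporter of apical membranes that moves riboflavin and many drugs into milk, had 5080.4, 6137 and 3171 in LH transgenic pools and 1836, 1609.9 and 1203 in wild type pools (log2 difference 1.55, SE 0.24, adjusted p 0.00252). LH transgenic pool 3 was the lowest of its group, as it was for Slc7a5 and for the milk, fat cell, luminal epithelial and macrophage sums. For Abcg2 it still exceeded every wild type pool. Abcg2 was the 1 ABC probe set called higher among 19 tested, and Abcd2 and Abcc9 were called lower. For ABC probe sets these are 5.26% and 10.5%, beside 10.5% and 10.8% of all tested probe sets. Abcg1, Abca2, Abcc3 and Abce1 had differences of 0.09, -0.08, 0.16 and 0.06, none called.

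The 2 probe sets of Abca1, the cholesterol exporter, had differences of 0.07 and -0.52, and neither was called. Abcd2, a peroxisomal importer of very long chain fatty acids that is abundant in fat, had 1438, 622 and 1627 in LH transgenic pools and 2515, 2132 and 2270.2 in wild type pools (log2 difference -0.96, SE 0.29, adjusted p 0.0427). LH transgenic pool 2 was far below the other pools, and the call was lost when any wild type pool or LH transgenic pool 1 was left out (-1.12 to -0.90). Without LH transgenic pool 2 the difference was -0.56 (adjusted p 0.0343), and without pool 3 it was -1.21. Abcc9, a regulatory subunit of potassium channels in muscle and vessels, had 222, 177 and 319.6 in LH transgenic pools and 528, 509 and 467 in wild type pools (difference -0.89, adjusted p 0.0224). This call was lost when any pool but LH transgenic pool 3 was left out (-0.93 to -0.74). The drug exporter Abcb1a, with 39.2, 118 and 265 in LH transgenic pools and 439, 414 and 459.9 in wild type pools, was dim and untested. Without the filter limma called it lower, right at the threshold (difference -1.36, adjusted p 0.05 after rounding).

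Carriers of organic acids, heme and folate moved in both directions. Slc16a1, which carries lactate and ketone bodies, had 593, 605 and 497 in LH transgenic pools and 358, 329.5 and 209 in wild type pools (difference 0.79, adjusted p 0.0327), and lost its call without wild type pool 2 or 3 or LH transgenic pool 1 or 2 (0.60 to 0.85). Slc48a1, a heme carrier of endosomes, had 3151, 3157 and 2204 in LH transgenic pools and 1580.1, 2038 and 1751 in wild type pools (difference 0.63, adjusted p 0.03). Slc19a1, the reduced folate carrier, had 704, 337 and 561 in LH transgenic pools and 1592, 1487 and 1829.6 in wild type pools (log2 difference -1.53, SE 0.23, adjusted p 0.00203). Its second tested probe set was not called (-0.62, adjusted p 0.0844).

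The remaining vitamin carriers had 1 further call. It came from a probe set of Slc23a3, a relative of the vitamin C carriers, that was marked for relaxed probe selection. This probe set had 767, 878 and 566 in LH transgenic pools and 969, 1335 and 1364 in wild type pools (difference -0.68, adjusted p 0.0378). A second one, without that mark, differed by 0.27 in the other direction and was not called. The choline carrier family members Slc44a2 and Slc44a4 had differences of -0.50 and -0.44 with adjusted p of 0.071 and 0.0709. Slc6a13, a carrier of GABA and taurine, was called lower, with 862, 1192 and 932 in LH transgenic pools and 1387, 1586 and 1572 in wild type pools (difference -0.58, adjusted p 0.0289).

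Mitochondrial carriers of the Slc25 family had 17 tested probe sets for 14 genes, of which 3 were called lower, none higher, and the median was -0.18. That is 17.6% called, beside 21.3% of all probe sets, and 6 of the 17 had an unadjusted p under 0.05, as did 34.8% of all probe sets. Slc25a1, which exports citrate from mitochondria for fatty acid synthesis, was called lower by both probe sets. One had 7001, 6584 and 5099.6 in LH transgenic pools and 13111, 13081 and 12031 in wild type pools (difference -1.03, adjusted p 0.0014), and the other had 1646, 1950.4 and 1641 in LH transgenic pools and 4088, 3534 and 4626 in wild type pools (difference -1.18, adjusted p 0.000884). Slc25a25, an ATP-magnesium and phosphate carrier, had 1301, 1865 and 1544 in LH transgenic pools and 2553, 2384 and 2213 in wild type pools (difference -0.59, adjusted p 0.0253). The adenine nucleotide carriers Slc25a4 (-0.30) and Slc25a5 (0.13 and close to 0 in its 2 probe sets) and the carnitine carrier Slc25a20 (0.08) were not called.

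The 2 tested fatty acid carriers had no call by limma, and 1 had an unadjusted p under 0.05. Slc27a1, the fatty acid transport protein of fat and muscle, had 1877, 2185 and 750.1 in LH transgenic pools and 2168, 3909 and 3805 in wild type pools (difference -1.08, SE 0.36, adjusted p 0.0606). LH transgenic pool 2 exceeded wild type pool 1, so the groups overlapped, and without either of these pools the difference was called (-1.36 and -1.35). Without LH transgenic pool 3, the lowest of all, it was -0.63 (adjusted p 0.102). The Slc35 family, which includes nucleotide sugar carriers, had 10 tested probe sets and a median of 0.27, and 1 was called higher (10%, beside 10.5% of all tested probe sets). This was Slc35b1, a carrier of the endoplasmic reticulum membrane, with 7361, 8146 and 8081 in LH transgenic pools and 5789, 5652 and 6153 in wild type pools (log2 difference 0.42, SE 0.12, adjusted p 0.0296). Slc35a2, which brings UDP-galactose into the Golgi where lactose is made, had 981, 818 and 967 in LH transgenic pools and 626, 831 and 577 in wild type pools, with overlap and without a call (0.41, 95% interval 0.02 to 0.81).

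Some members under the naming rule are not carriers of a known substrate. Slc9a3r1, a scaffold protein that anchors carriers at the apical membrane, had 7855, 8751 and 7132 in LH transgenic pools and 4277, 5195 and 4039 in wild type pools (log2 difference 0.81, SE 0.14, adjusted p 0.00429). The related Slc9a3r2 differed by -0.15 (adjusted p 0.495). Slc66a2, a membrane protein of uncertain substrate, had 4209, 4503 and 3795 in LH transgenic pools and 2563, 2583 and 2293 in wild type pools (log2 difference 0.73, SE 0.13, adjusted p 0.00438). The groups were apart for both called genes.

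Pools within a group ranked differently among the called members. Among the 19 called higher, LH transgenic pool 2 was the highest of its group in 11 (57.9%, against 34.6% of the 781 probe sets called higher over the whole table) and LH transgenic pool 3 the lowest in 10 (52.6% against 38.2%). Wild type pool 2 was the highest of its group in 12 (63.2% against 52.8%) and wild type pool 3 the lowest in 15 (78.9% against 44%). Among the 12 called lower, LH transgenic pool 2 was the highest of its group in 6 (50%, against 27.6% of the 805 called lower over the whole table). LH transgenic pool 3 was the lowest in 6 (50% against 32.9%), and wild type pool 2 the lowest in 6 (50% against 41.7%). Wild type pools 1 and 3 were the highest in 5 each (41.7%, against 28% for pool 1 and 51.4% for pool 3). The milk gene sum was highest in pool 2 and lowest in pool 3 of each group, with 867385, 989782 and 761575 in LH transgenic pools 1, 2 and 3 and 398829, 539597 and 318569 in wild type pools 1, 2 and 3. The fat cell, luminal epithelial and macrophage sums were also highest in pool 2 and lowest in pool 3 of the LH transgenic group. In the wild type group they did not have this order. Members share arrays, so these counts are a description.

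**Figure D4:**
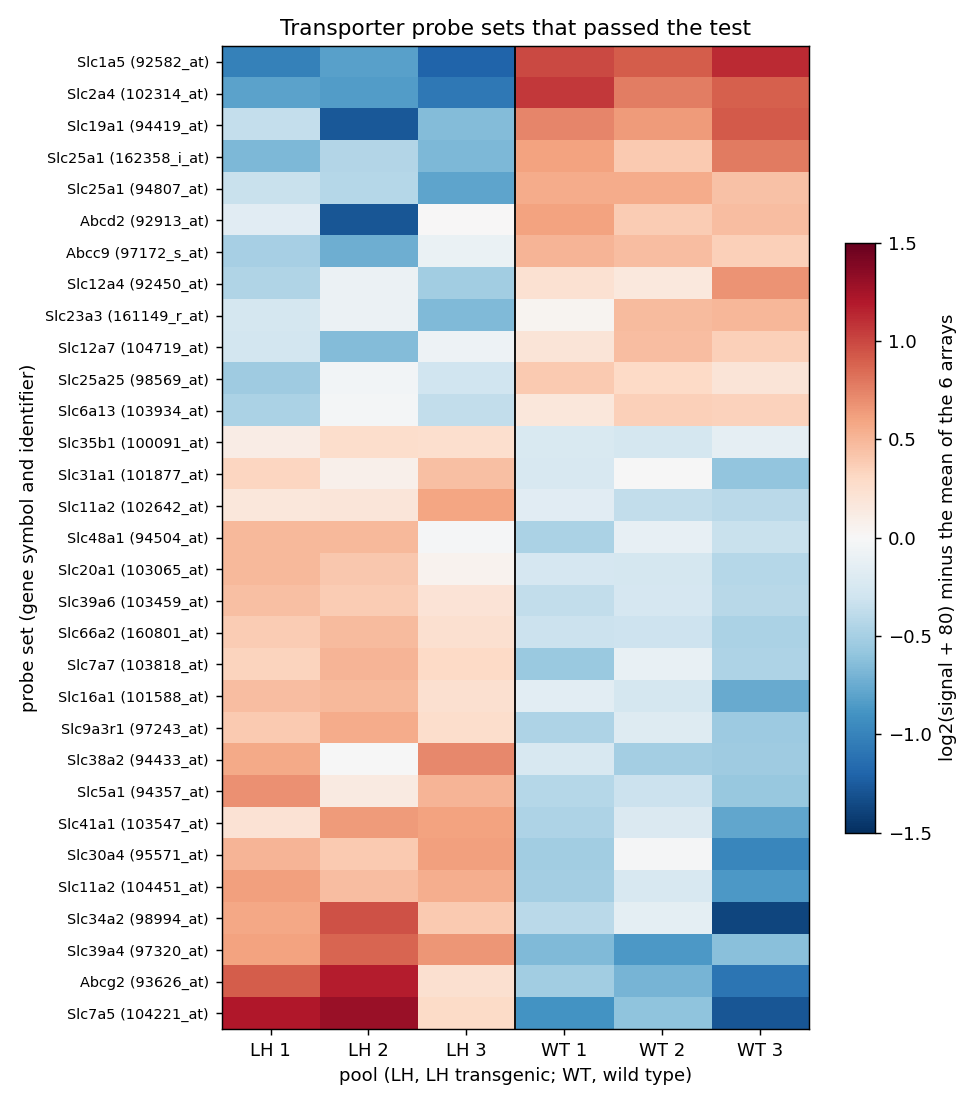
Log2(signal + 80) minus the mean of the 6 arrays (colour scale cut at -1.5 and 1.5) for the 31 called transporter probe sets, ordered by difference, in LH transgenic pools 1 to 3 on the left and wild type pools 1 to 3 on the right. The upper 12 rows were lower and the lower 19 higher in LH transgenic pools, and wild type pool 3 was the lowest wild type pool in 15 of those 19.

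The muscle marker level averaged 9.79, 10.06 and 11.67 on the log2 scale in LH transgenic pools and 11.73, 11.9 and 11.69 in wild type pools. It went largely with the group, and its slope rests mainly on LH transgenic pool 3 against pools 1 and 2. With this level of each array as a covariate, 11 of the 31 calls remained. Those called higher were Slc7a5 (1.23), Slc38a2 (1.12), Slc39a4 (1.39), Slc41a1 (1.16) and both probe sets of Slc11a2 (0.92 and 1.10), and those called lower were Slc1a5 (-2.21), Slc2a4, Slc19a1 and both probe sets of Slc25a1 (-1.28 and -1.32). In that fit 10.2% of all probe sets were called. Calls were lost, among others, for Abcg2 (1.02, SE 0.27, adjusted p 0.05 after rounding), Slc34a2 (1.13, SE 0.44), Slc30a4 (1.17, SE 0.32), Slc5a1 (0.92, SE 0.29) and Slc7a7 (0.72, SE 0.23). Of these 5 differences that of Slc30a4 and that of Slc5a1 were larger than without the covariate, and all 5 standard errors were larger. Of the other lost calls, differences moved towards 0 for Slc12a7, Slc20a1, Slc39a6, Slc16a1, Slc25a25, Slc48a1, Slc66a2, Slc9a3r1, Abcc9 and Abcd2. They moved away from 0 for Slc12a4, Slc31a1, Slc6a13, Slc35b1 and Slc23a3. The probe sets of Slc15a2 (1.63), Slc29a1 (0.72), Slc27a1 (-1.98) and Slc25a10 (-0.72) gained a call.

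The scale of the arrays mattered for the direction of small differences and for the calls of larger ones. The bacterial controls added to each hybridisation averaged 12.35, 12.80 and 12.59 in log2 signal on LH transgenic arrays and 11.71, 12.11 and 11.85 on wild type arrays. Dividing each array by them moved the median of all probe sets to -0.62. On that scale 4 members (6.3% of member calls, against 61.3% as deposited) were called higher, namely Slc7a5 (1.18), Abcg2 (0.88), Slc39a4 (0.77) and Slc34a2 (0.63), and 59 lower. Over all probe sets 53.7% were then called, 1.88% higher and 51.8% lower. Members that stayed above 0 but lost the call included the Slc11a2 probe set with the larger difference (0.43), Slc30a4 (0.35) and Slc41a1 (0.3). Slc7a7 (0.1), Slc39a6 (0.06) and Slc66a2 (0.06) also lost it and were close to 0. Of the 19 members called higher as deposited, 14 stayed above 0 and 5 were below it, namely Slc35b1 (-0.27), Slc31a1 (-0.11), the Slc11a2 probe set with the smaller difference (-0.04), Slc20a1 (-0.03) and Slc48a1 (-0.03). The differences of Slc3a2, Slc12a2, Slc39a8, Slc35a2 and the second Slc39a4 probe set, which were not called as deposited, were also below 0 on that scale.

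Genes that work beside these carriers were read from lists set with earlier results known, and their counts stand beside 21.3% called (10.5% higher and 10.8% lower) over all tested probe sets. Of 9 genes of lactose synthesis 2 were called lower and none higher by limma, with 5 at an unadjusted p under 0.05. Hk2, a hexokinase of insulin-responsive tissues, had 1674, 1535 and 2937 in LH transgenic pools and 4035, 4364 and 4615 in wild type pools (-1.11, adjusted p 0.00741), and Pgm1, phosphoglucomutase, had 6472, 6407 and 7320.4 in LH transgenic pools and 14390.1, 11840.0 and 14874 in wild type pools (-1.01, adjusted p 0.00113). Lalba, the regulatory subunit of lactose synthase, had 52488, 56487 and 30537 in LH transgenic pools and 20983, 32406 and 6962 in wild type pools, which overlapped (1.41, adjusted p 0.0607). The remaining genes of this list were not called and went both ways. Pgm2, Galt and Hk1 had differences of 0.45, 0.33 and 0.21, and Ugp2, B4galt1 and B4galt2 had -0.1, -0.33 and -0.63.

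Of 8 tested sodium, calcium and proton pump genes, 1 was called lower and none higher by limma, with 2 at an unadjusted p under 0.05. This was the endoplasmic reticulum calcium pump Atp2a3, with 1095, 1092 and 556 in LH transgenic pools and 1289, 1937 and 1855 in wild type pools (-0.87, adjusted p 0.0388). The sodium pump subunit Atp1b3 differed by -0.32 (adjusted p 0.0797). Both tested water channels were called lower. Aqp1, the channel of endothelium, had 4103, 5106 and 3514 in LH transgenic pools and 10664, 7383 and 8237 in wild type pools (-1.03, adjusted p 0.00413). Aqp7, the glycerol channel of fat cells, had 349, 337 and 252 in LH transgenic pools and 637, 679.9 and 916 in wild type pools (-1.06, adjusted p 0.00674). Of 4 tested transporter genes whose symbols do not follow the naming rule, among them the peptide carriers Tap1 (0.17) and Tap2 (0.24) and the chloride channel Cftr (-0.06), limma called none, with 0 at an unadjusted p under 0.05.

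Start regions of members were read for motifs of factors known to act on transport and milk genes. RefSeq windows (GRCm38.p6) of 250 bases before to 50 after a gene's start were at hand for 141 of the 176 genes. The motif bound by STAT factors, which act downstream of prolactin, was written as TTCNNNGAA, which reads the same on both strands. It occurred in 1 of 12 genes called higher that had a window, in 0 of 8 called lower, in 4.96% of the 141 transporter genes and in 9.55% of all genes. The element of amino acid shortage, written as TGATGNAA and searched on both strands, occurred in 1 of 12 and 1 of 8, in 4.26% of transporter genes and in 4.51% of all genes. A match is a run of letters and not a shown binding site, and 122 windows of the whole table held both motifs. The windows below are those of the 3 called genes that held a match, with the match in capitals, and of Slc34a2 and Slc25a1, which are called genes that held none. Slc7a7 had 5 windows, of which 2 held the element, and 1 of these is shown.
Slc35b1 (STAT motif; chr11:95384606-95384905, plus strand): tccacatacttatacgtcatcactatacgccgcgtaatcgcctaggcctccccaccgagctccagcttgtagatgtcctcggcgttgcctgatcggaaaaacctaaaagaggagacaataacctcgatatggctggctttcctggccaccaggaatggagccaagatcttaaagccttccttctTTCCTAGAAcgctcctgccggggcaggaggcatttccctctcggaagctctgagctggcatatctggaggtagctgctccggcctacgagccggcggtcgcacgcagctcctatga
Slc7a7 (amino acid element, 2 matches; chr14:54417895-54418194, minus strand): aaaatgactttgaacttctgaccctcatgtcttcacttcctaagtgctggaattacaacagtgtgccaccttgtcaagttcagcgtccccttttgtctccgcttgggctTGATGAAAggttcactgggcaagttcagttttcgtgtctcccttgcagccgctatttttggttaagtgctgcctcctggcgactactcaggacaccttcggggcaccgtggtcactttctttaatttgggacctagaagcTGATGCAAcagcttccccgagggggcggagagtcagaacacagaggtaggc
Slc23a3 (amino acid element; chr1:75133841-75134140, minus strand): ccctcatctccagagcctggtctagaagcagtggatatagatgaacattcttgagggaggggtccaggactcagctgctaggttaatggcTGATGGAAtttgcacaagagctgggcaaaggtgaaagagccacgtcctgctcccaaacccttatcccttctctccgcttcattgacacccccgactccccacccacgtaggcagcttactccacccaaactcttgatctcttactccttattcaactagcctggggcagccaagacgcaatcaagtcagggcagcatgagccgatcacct
Slc34a2 (no match; chr5:53049103-53049402, plus strand): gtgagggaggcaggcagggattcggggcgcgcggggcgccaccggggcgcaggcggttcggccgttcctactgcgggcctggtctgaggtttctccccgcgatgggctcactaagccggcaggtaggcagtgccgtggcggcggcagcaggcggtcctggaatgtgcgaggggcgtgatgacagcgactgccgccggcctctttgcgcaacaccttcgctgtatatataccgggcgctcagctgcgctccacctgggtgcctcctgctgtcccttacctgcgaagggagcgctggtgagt
Slc25a1 (no match; chr16:17928170-17928469, minus strand): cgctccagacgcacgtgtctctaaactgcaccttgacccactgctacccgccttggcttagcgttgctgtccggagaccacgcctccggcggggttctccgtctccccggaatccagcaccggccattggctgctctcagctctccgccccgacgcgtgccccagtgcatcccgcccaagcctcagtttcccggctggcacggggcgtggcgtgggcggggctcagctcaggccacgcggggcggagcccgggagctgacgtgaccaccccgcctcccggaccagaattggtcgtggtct
The matches stood in 2 genes that were higher (Slc35b1 and Slc7a7) in LH transgenic glands and in Slc23a3, called lower by 1 of its 2 tested probe sets. The Slc34a2 and Slc25a1 windows were rich in CG dinucleotides, with 30 in each, against 19, 9 and 6 in those of Slc35b1, Slc7a7 and Slc23a3.

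The 90 untested probe sets covered 64 genes with no tested probe set. Their 6-array means had a median of 109.8, and 27 never exceeded a signal of 100. Carriers known from other tissues, such as the liver and brain, were among them (for example the bile acid carrier Slc10a1, the liver glucose transporter Slc2a2 and the vesicular carrier Slc18a3). Groups did not overlap for 12 of the 90, 4 higher and 8 lower, where 17.9% of all untested probe sets did not overlap (10% higher and 7.87% lower). With no filter 3 of the 90 were called, beside 2.88% of the untested and 10.8% of all probe sets (5.77% lower), and all 3 were lower. They were Abcb1a, Slc2a5 and the carnitine carrier Slc22a4, which had 47.4, 32.6 and 34.9 in LH transgenic pools and 234, 198 and 199 in wild type pools (difference -1.29, adjusted p 0.00373).

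Leaving out each pool in turn kept 17 of the 31 calls in all 6 fits, 12 higher and 5 lower. They belonged to Slc7a5, Slc7a7, Slc5a1, Slc34a2, Slc30a4, Slc39a4, Slc39a6, Slc11a2, Slc41a1, Abcg2, Slc9a3r1 and Slc66a2 among those higher, and to Slc1a5, Slc2a4, Slc19a1 and both probe sets of Slc25a1 among those lower. The other 14 calls held in 1 to 4 of the 6 fits. More than 1 probe set was tested for 11 genes. A call was made in 6 of these, by every tested probe set in Slc11a2 and Slc25a1, and 0 had calls in both directions.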

How the data were processed

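Mammary gland RNA of 3 LH transgenic and 3 wild type pools was hybridised to 6 arrays, and groups follow the source name in the labels. The authors deposited MAS5 signals, linear intensity values per probe set (MAS5 per the submitters' processing notes; version and detection calls not given in the sources used here). Genes were named from the platform annotation, which gave 1 gene for 10833 probe sets. From these values log2(signal + 80) was computed, 80 being the 20th percentile. Probe sets with a 6-array mean of at least 336, the 40th percentile, were tested with limma 3.58.1 (R 4.3.3; eBayes with a trend, two-sided, no covariate) over 7453 probe sets, without the 66 controls. The fit was tested on simulated data. The number of arrays limits precision. Pools came from different mice, the labels name no batch, and replicate numbers are names. For a list, the brightest probe set stood for a gene. Members and lists were chosen with earlier results of these data known. Genes named by rule were the up to 4 largest called, non-overlapping changes per direction and substrate group, plus 22 set genes, of which Slc5a5 and Slc40a1 had no probe set of their own here; the others were named for their role after values were seen. Alternatives were quantile normalization, median centring, bacterial control scaling, other pseudocounts, filters and variance models, a muscle covariate, 1 probe set per gene, and leaving out each pool. Tables and figures used Python 3.11.15, pandas 2.3.3 and matplotlib 3.10.9.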

Additional observations from a re-analysis of the deposited data

How the results depend on the processing

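The counts of called transporter probe sets (31, with 19 higher and 12 lower) stayed within 1.5 times under quantile normalization, median centring, both other pseudocounts, no filter, the stricter filter, both variance models and 1 probe set per gene. Scaling to the bacterial controls gave 63, with 4 higher and 59 lower, and turned the Slc11a2 probe set with the smaller difference to -0.04. The muscle covariate gave 15, with 8 higher and 7 lower. Leaving out single pools gave 17 to 30 calls, 12 to 20 higher and 5 to 12 lower. Wild type pool 3 (17 calls when left out, 12 higher and 5 lower), LH transgenic pool 1 (19 calls, 5 lower) and wild type pool 2 (6 lower) moved a count by more than 1.5 times. The causes were not tested, though each such fit has fewer arrays. No paired analysis was possible because the labels give no numbers that pair the pools.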
